A study of Mus musculus with 6 samples.

Results

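The secretory calcium-binding phosphoprotein (SCPP) genes are a family of neighbouring genes whose products build the extracellular matrix of enamel, dentin and bone. The 10 genes described here were taken by name from the 47360 gene symbols of the FPKM table. They are the enamel matrix genes Amelx, Ambn and Enam, the junctional and maturation-stage genes Odam and Amtn, the dentin and bone genes Spp1, Ibsp, Dmp1 and Dspp, and BC037156, the annotated neighbour of Odam. All 10 were found in the table. BC037156 had been taken as a noncoding gene. GENCODE M21 annotates it as a lincRNA, whereas the deposited table lists it as coding, and RefSeq lists a protein-coding gene with the synonym FDC-SP. It is therefore called by its symbol here, and its reading frame is given here.

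Dental epithelial organoids (DEOs) were grown in Matrigel for 14 days from dissociated epithelium of incisor apical buds of 9-week-old female wild-type C57BL/6J mice, and RNA was sequenced from 1 library per medium. How many mice or wells went into a library was not given in the sources used here. Every medium contained 50% Wnt3a-conditioned medium, 5% R-spondin1-conditioned medium, EGF at 100 µg per ml, Noggin at 200 µg per ml, Y27632 at 10 µM and N-acetylcysteine at 1 mM. This base is +N, a medium in which the BMP antagonist Noggin is present throughout. DBZ (dibenzazepine), an inhibitor of the γ-secretase cleavage that activates Notch, was added at a labelled 10 µM in +ND. FGF10 was added at 100 µg per ml in +NF. Both were added in +NFD. The study's methods give the DBZ dose in another unit (mmol per l in place of µM), so the dose is uncertain. The +NJ and +NFJ media were not analysed here.

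In the tooth, ameloblasts secrete amelogenin, ameloblastin and enamelin into the enamel space, and proteases later remove them so that crystals can widen. Odam and amelotin appear later, at the basal lamina between maturing ameloblasts and enamel, and in the junctional epithelium that seals the gum to the tooth. Osteopontin, bone sialoprotein, dentin matrix protein 1 and dentin sialophosphoprotein are acidic proteins known mainly from bone and dentin, although osteopontin and bone sialoprotein are also made by some epithelial and immune cells.

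Values are FPKM, fragment numbers scaled to transcript length and sequencing depth, so levels can be compared between genes per length. Relative to +N, depth was 0.794 in +ND, 1.03 in +NF and 1.08 in +NFD, as judged from the steps between low values of 27024 single-transcript genes in 7 length classes. The steps also gave an estimated number of fragments behind each value, and the 95% intervals below are exact Poisson or binomial intervals of that number, which cover counting error only. No medium has a replicate, so no test was made and no difference has a replicate check. All 7 epithelial markers examined were at an FPKM of at least 1 in every library, with a summed level of 20246 in +N and 11185 in +ND, with 15873 in +NF and 13229 in +NFD. RNA of other cells was measured as well. The summed FPKM of 10 fibroblast markers was 156, 138, 98.1 and 396 in the same order, with none of them at 0, and that of 10 macrophage markers was 716, 595, 506 and 466. The 5 endothelial markers summed to between 0.146 and 0.326. In bulk RNA, a change in the number of cells of a type and a change in RNA per cell cannot be told apart.

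The sequences just before the transcription start of 5 genes are shown because 3 of them (Amelx, Ambn and Enam) were highest in the same library, and the others (Odam and BC037156) are adjacent genes that were lower in both media with DBZ. Each run is the 250 bases before the RefSeq start, 5′ to 3′ on the gene's strand, on GRCm38.p6. Capitals mark the letters of 5 motifs, searched on both strands, namely TAATTA (homeobox factors such as Msx and Dlx), TGTGGT (Runx), TTGCGCAA (C/EBP), TGGGAA (the Notch effector RBPJ) and TATAAA (the core promoter box).
Amelx, chrX:169187210-169187459, minus strand: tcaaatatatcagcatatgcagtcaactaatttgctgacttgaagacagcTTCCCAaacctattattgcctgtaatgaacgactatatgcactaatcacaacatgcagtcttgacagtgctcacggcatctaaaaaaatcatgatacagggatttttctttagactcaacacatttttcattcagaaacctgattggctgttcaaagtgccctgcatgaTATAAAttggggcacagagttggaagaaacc
Ambn, chr5:88455741-88455990, plus strand: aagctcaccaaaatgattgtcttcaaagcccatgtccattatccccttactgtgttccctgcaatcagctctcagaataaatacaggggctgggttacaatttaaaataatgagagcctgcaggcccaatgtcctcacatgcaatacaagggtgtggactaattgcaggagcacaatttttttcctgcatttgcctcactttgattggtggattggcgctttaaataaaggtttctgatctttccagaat
Enam, chr5:88487725-88487974, plus strand: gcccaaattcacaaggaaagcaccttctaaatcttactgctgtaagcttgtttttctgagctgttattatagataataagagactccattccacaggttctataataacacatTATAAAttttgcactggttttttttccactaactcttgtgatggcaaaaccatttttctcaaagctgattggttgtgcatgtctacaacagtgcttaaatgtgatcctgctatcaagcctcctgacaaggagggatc
Odam, chr5:87884760-87885009, plus strand: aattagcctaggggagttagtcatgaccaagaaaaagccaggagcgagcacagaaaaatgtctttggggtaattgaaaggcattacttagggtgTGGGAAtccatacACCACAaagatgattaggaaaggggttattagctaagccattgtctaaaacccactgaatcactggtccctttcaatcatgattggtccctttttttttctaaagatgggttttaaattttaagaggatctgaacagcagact
BC037156, chr5:87908529-87908778, plus strand: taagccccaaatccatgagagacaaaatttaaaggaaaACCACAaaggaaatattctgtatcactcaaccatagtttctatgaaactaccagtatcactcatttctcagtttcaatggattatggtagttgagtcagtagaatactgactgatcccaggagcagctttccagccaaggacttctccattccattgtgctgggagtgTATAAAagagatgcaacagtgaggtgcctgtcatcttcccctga

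No motif occurred in all 3 enamel matrix genes. Amelx held TATAAA starting 31 bases before the start and TGGGAA, on the other strand, starting 200 bases before it. Enam held TATAAA starting 137 bases before the start, and Ambn held none of the 5. Odam and BC037156 each held TGTGGT, on the other strand, starting 143 and 212 bases before the start, and BC037156 held TATAAA at 44 bases. Odam also held TGGGAA at 156 bases. The promoter table had 11 entries for the SCPP genes and BC037156, with more than 1 for Dmp1 and for Spp1 and no entry for Dspp. Of the 11 entries, 1 held TAATTA, 4 held TGTGGT, 0 held TTGCGCAA, 3 held TGGGAA and 5 held TATAAA. Among all 32851 promoter entries of the same length, the shares holding them were 4.84%, 14%, 0.164%, 21.6% and 12.4%. No match overlapped another. The matches describe letters only and do not show a bound factor.

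The reading frame of BC037156 is shown because it bears on what the most abundant entry of the table is. The gene has 1 annotated transcript of 430 bases in 5 exons, chr5:87908779-87914171 on the plus strand of GRCm38. Its longest frame from ATG spans bases 50 to 304 of the transcript, 84 codons and a stop, with the 18 proline codons in capitals.
BC037156 reading frame: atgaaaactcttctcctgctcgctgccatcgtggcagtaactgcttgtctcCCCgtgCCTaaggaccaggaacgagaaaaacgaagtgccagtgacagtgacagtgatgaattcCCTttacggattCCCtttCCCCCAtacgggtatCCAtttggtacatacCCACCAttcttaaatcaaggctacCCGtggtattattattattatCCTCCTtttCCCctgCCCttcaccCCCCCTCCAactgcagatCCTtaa

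Proline and glutamine codons made up 23.8% of this frame, of which 21.4% were proline and 2.38% glutamine. The proline share was near that of Amelx (21%) and above the 2.12% to 5.08% of the dentin and bone genes. The glutamine share was below that of each other gene, among which Dspp had 2.75% and Odam 13.6%. Over the longest annotated coding sequence of each gene, the share of proline and glutamine codons was 32.9% in Amelx, 22% in Ambn, 20.8% in Enam, 26% in Odam and 23.5% in Amtn. It was 9.83% in Spp1, 7.41% in Ibsp, 10.5% in Dmp1 and 4.87% in Dspp. The share of aspartate, glutamate and serine codons ran the other way, from 10.3% in Amtn to 17.2% in Enam, with 14.3% in BC037156, against 32.1% in Ibsp, 40.3% in Spp1, 50.9% in Dmp1 and 61.7% in Dspp. The pattern serine, any residue, glutamate, which the Golgi kinase Fam20C phosphorylates, occurred 20 times in Spp1, 8 in Ibsp, 40 in Dmp1 and 10 in Dspp, and between 1 and 3 times in each of the other 6. The integrin-binding triplet arginine, glycine, aspartate occurred once in each dentin and bone gene and in none of the others. In the plot of codon composition, which sums proline and glutamine, BC037156 sits among the enamel and junctional genes.

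**Figure D1:**
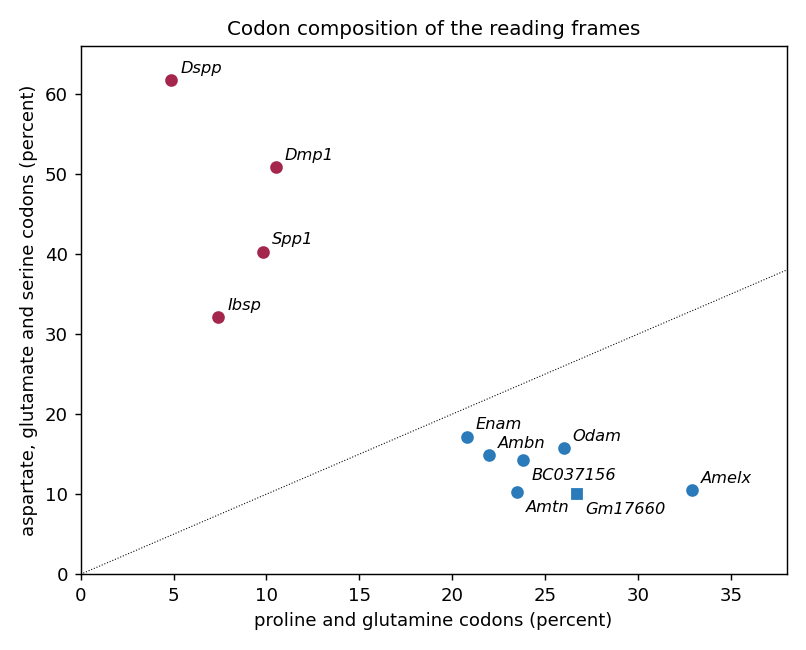
Share of proline and glutamine codons (x axis, percent) against the share of aspartate, glutamate and serine codons (y axis, percent) in the reading frame of each gene, with the dotted line marking equal shares. Dspp, Dmp1, Spp1 and Ibsp lie above the line, and Amelx, Ambn, Enam, Odam, Amtn, BC037156 and Gm17660 (square, the RefSeq Scpppq1 gene) lie below it.

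The 3 enamel matrix genes were near or at the limit of detection in +N, +ND and +NF and were clearly detected in +NFD. Amelx, which encodes amelogenin, the bulk protein of forming enamel, lies at chrX:169176114-169187200. Its FPKM was 0.269 in +N and 0.272 in +ND, with 0.12 in +NF and 323 in +NFD. The value in +NFD rested on an estimated 7562 fragments (interval 316 to 330 FPKM), and those in +N, +ND and +NF on 5.84, 4.73 and 2.65 fragments. Amelx ranked 262nd of all symbols by FPKM in +NFD and 14784th, 14914th and 16573rd in +N, +ND and +NF. Relative to +N, its FPKM in +NFD was 1203-fold higher (interval 538 to 3192), and relative to +ND it was 1190-fold higher (482 to 3470). Relative to +NF the ratio was 2699 (814 to 11544), but the level in +NF lay under that of 3 fragments (0.136 FPKM). If all Amelx fragments came from its shortest transcript, the estimates would be 2728 in +NFD and 2.06, 1.63 and 0.907 in +N, +ND and +NF, each of the last 3 under 3 fragments. Amelx lies inside Arhgap6 on the opposite strand and shares 0 exon bases with it, and Arhgap6 was between 0.118 and 0.151 FPKM in the 4 libraries.

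Ambn, which encodes ameloblastin, a matrix protein that holds ameloblasts to the enamel surface, lies at chr5:88455991-88468531. Its FPKM was 0.34 in +N and 0.139 in +ND, with 0.117 in +NF and 26.4 in +NFD, from an estimated 17, 5.62, 6.21 and 1422 fragments. The level in +NFD was 77.7-fold that in +N (interval 48.3 to 134), 190-fold that in +ND (81.3 to 484) and 226-fold that in +NF (107 to 639). Among the 3 low libraries, the ratio of +N to +NF was 2.91 (1.14 to 9.35) and that of +N to +ND was 2.44 (0.861 to 7.09). These levels were under 1 FPKM and rested on few fragments, so nothing is read from either ratio. Enam, which encodes enamelin, a large and scarce enamel protein, lies next to Ambn at chr5:88487975-88506049, with a gap of 19.4 kb. It was listed at 0 in +N, +ND and +NF, where 3 fragments correspond to 0.0197, 0.0245 and 0.0191 FPKM. In +NFD it was at 1.97 FPKM (1.76 to 2.2), from an estimated 310 fragments. Against the level of 3 fragments in the compared library, Enam was at least 100-fold higher in +NFD than in +N, at least 80.4-fold higher than in +ND and at least 103-fold higher than in +NF. These bounds take the level in +NFD as measured, and the exact 95% interval of each ratio, which counts the error of both libraries, reached down to 80.9, 64.9 and 83.4. Within +NFD, the level of Amelx was the highest of the 3 and that of Enam the lowest.

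**Figure D2:**
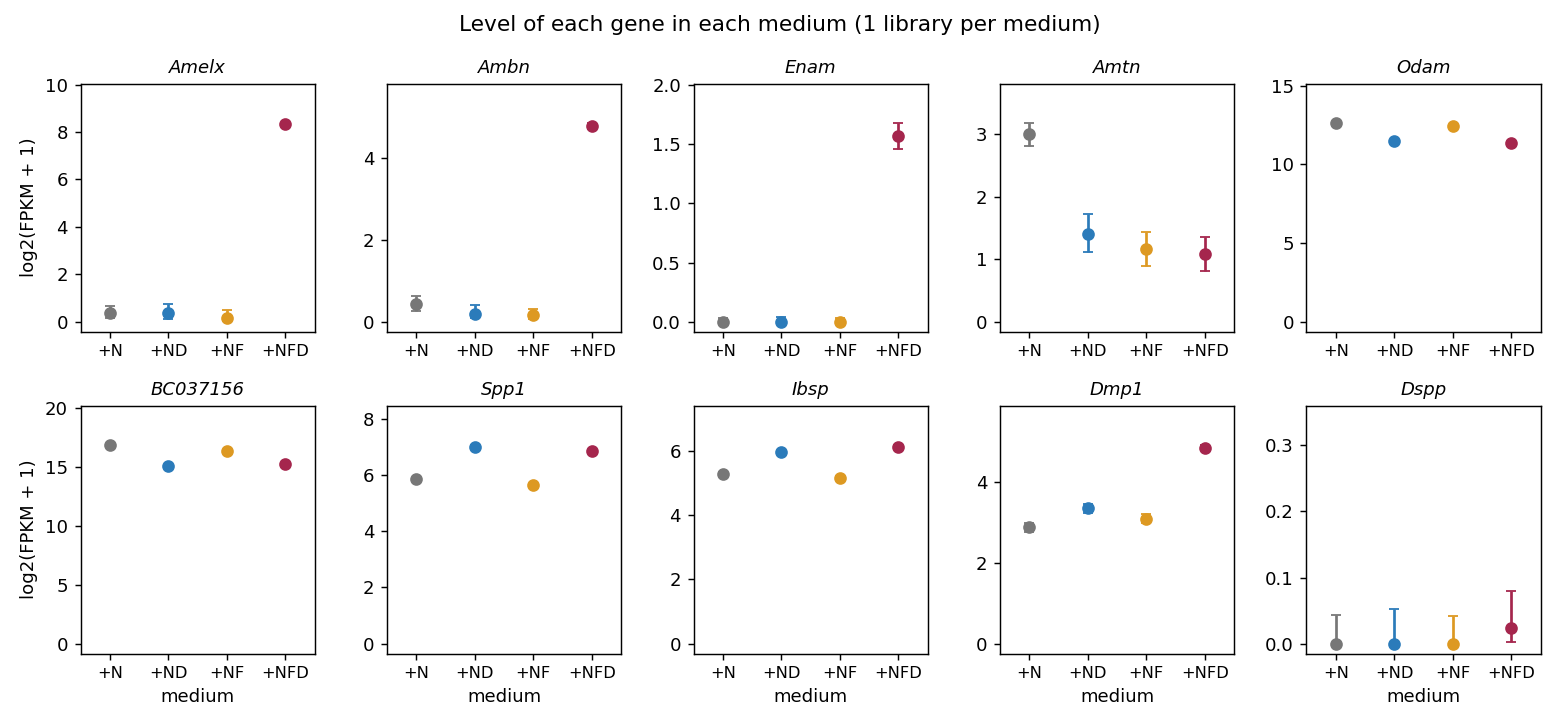
Level of each gene as log2(FPKM + 1) (y axis) in each medium (x axis), 1 library per medium, with bars for the 95% counting interval and a scale of its own for each gene. Amelx, Ambn and Enam are high in +NFD only among these 4 libraries, Odam and BC037156 are lower in +ND and +NFD, and Spp1 and Ibsp are higher in the same libraries.

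Fibroblast markers were also highest in +NFD. Of the 10 markers, 9 were at least 2-fold higher in +NFD than in +N, beside 5.85% of all genes, led by Thy1 (0.0769 to 11.1 FPKM) and Prrx1 (2.08 to 15.6), and their summed level was 396 against 156. Their part in the levels of the enamel matrix genes was not tested. The summed epithelial marker level in +NFD was below that in +N, and of the 7 markers, 3 were at least 2-fold lower, beside 4.03% of all genes.

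Odam and Amtn, the other ameloblast-associated members, had different patterns. Odam, which encodes odontogenic ameloblast-associated protein, lies at chr5:87885029-87894174. Its FPKM was 6221 in +N and 2824 in +ND, with 5441 in +NF and 2602 in +NFD, which ranked it 7th, 18th, 8th and 21st among all symbols. Both libraries with DBZ were lower than both without, by a factor of 2.2 in +ND relative to +N (interval 2.19 to 2.22) and 2.09 in +NFD relative to +NF (2.08 to 2.11). Of the 7 epithelial markers, 6 had a negative ratio in +ND relative to +N and 1, Trp63, a positive one (0.90). At least 2-fold lower were 3 of 7, namely Epcam (log2 ratio -1.15), Cdh1 (-1.25) and Krt14 (-1.19), beside 5.29% of all genes, and the median of the 7 was -0.75. Between +NFD and +NF, 1 of 7 was lower, Epcam (-1.14), beside 2.69%, and the median was -0.43. The part of epithelial RNA in the levels of Odam and BC037156 was not tested. With FGF10 the level of Odam was lower by a factor of 1.14 (1.14 to 1.15) without DBZ and 1.09 (1.08 to 1.1) with it. Odam was thus the highest of the 9 genes other than BC037156 in each library, including those in which Amelx and Ambn were barely detected.

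Amtn, which encodes amelotin, lies at chr5:88376108-88385916, between Odam and Ambn. Its FPKM was 7.01 in +N and 1.65 in +ND, with 1.24 in +NF and 1.13 in +NFD, from an estimated 195, 36, 35.5 and 33.5 fragments. It was highest in +N, by a factor of 4.25 over +ND (2.96 to 6.23), 5.63 over +NF (3.96 to 8.42) and 6.22 over +NFD (4.35 to 9.42). The level in +NFD could not be separated by counting error from that in +ND or in +NF. The ratio of +ND to +NFD was 1.47 (0.902 to 2.46), and that of +NF to +NFD was 1.11 (0.668 to 1.84). Amtn was thus lower with either addition and no lower, beyond counting error, with both.

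BC037156 had the highest FPKM of all symbols in every library. Its FPKM was 116578 in +N and 34772 in +ND, with 83486 in +NF and 38852 in +NFD, between 12.3 and 18.7 times the level of Odam, whose end lies 14.6 kb away. It made up 15.6%, 5.17%, 12% and 5.71% of the FPKM sum of these libraries. The runner-up in each library, Gm44323, was between 14477 and 22562. Because its transcript is only 430 bases long, its share of fragments is smaller than its share of FPKM, at an estimated 3.19%, 0.943%, 2.15% and 1.11%. Both libraries with DBZ were lower than both without, as for Odam, by a factor of 3.35 in +ND relative to +N (3.34 to 3.37) and 2.15 in +NFD relative to +NF (2.14 to 2.16). With FGF10 it was lower by a factor of 1.4 (1.39 to 1.4) without DBZ and higher by a factor of 1.12 (1.11 to 1.12) with it. These intervals are narrow because the counts are large, and they leave out the spread between cultures. BC037156 shares 63 of its 430 exon bases with 1700066N21Rik on the opposite strand, which was between 0.226 and 0.31 FPKM. The plot of FPKM shares shows the same order of media for BC037156 and Odam except that +ND and +NFD change places.

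**Figure D3:**
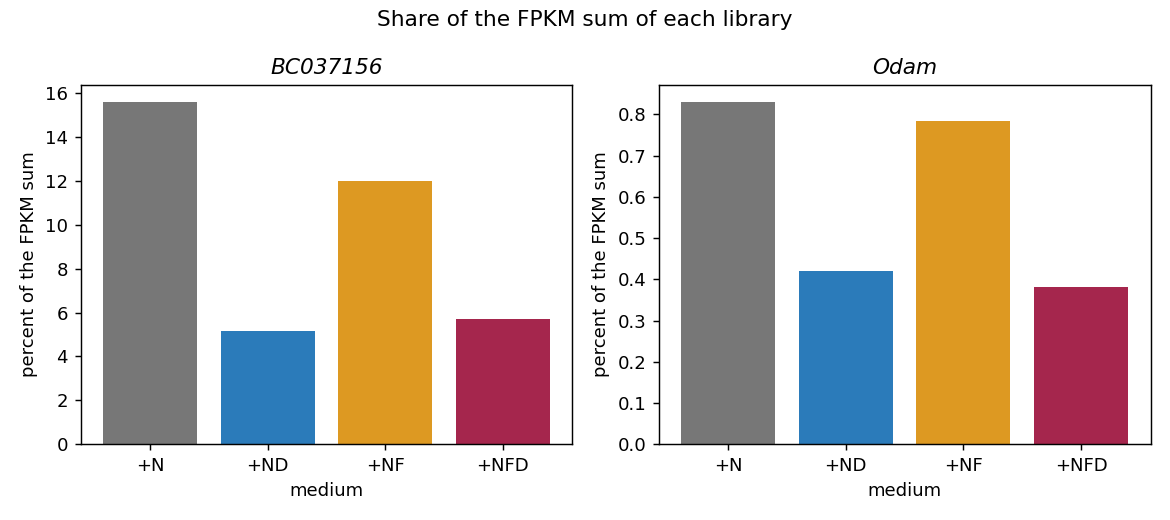
Percent of the FPKM sum of each library (y axis) given by BC037156 (left) and Odam (right) in each medium (x axis), 1 library per bar. The bars run from 5.17% to 15.6% for BC037156 and from 0.382% to 0.83% for Odam, with +N and +NF above +ND and +NFD in both panels.

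Of the dentin and bone genes, Spp1, Ibsp and Dmp1 were detected in each library and Dspp was not. Spp1, which encodes osteopontin, a cytokine and mineral-binding protein, lies at chr5:104435118-104441050. It was at 56.7 FPKM in +N and 128 in +ND, with 48.5 in +NF and 114 in +NFD. Both libraries with DBZ were higher than both without, by a factor of 2.26 in +ND relative to +N (2.15 to 2.38) and 2.34 in +NFD relative to +NF (2.22 to 2.47). Ibsp, which encodes bone sialoprotein, a nucleator of bone mineral, lies at chr5:104299171-104311469 and was at 37.7, 60.5, 34.4 and 68.6 FPKM. It was higher with DBZ by a factor of 1.6 (1.51 to 1.7) without FGF10 and 1.99 (1.89 to 2.1) with it. Of 309 exon bases that Spp1 shares with Gm42793 on the same strand, the assignment of fragments is uncertain, and Gm42793 was at most 0.457 FPKM.

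Dmp1, which encodes an acidic regulator of dentin and bone mineralization, lies at chr5:104202613-104214102. It was at 6.37 FPKM in +N and 9.27 in +ND, with 7.56 in +NF and 28 in +NFD, from an estimated 481, 568, 599 and 2234 fragments. The level in +NFD was 4.4-fold that in +N (3.98 to 4.86), 3.02-fold that in +ND (2.76 to 3.32) and 3.7-fold that in +NF (3.38 to 4.06). Dmp1 was therefore, like the enamel matrix genes, highest in +NFD, but unlike them it was well above the detection limit in all 4 libraries. Dspp, which encodes the main phosphoprotein of dentin and lies at chr5:104170712-104180127, was at 0.0162 in +NFD and listed at 0 in the others. The value in +NFD corresponds to an estimated 2.06 fragments, under the level of 3 fragments (0.0236 FPKM), so that no difference was detectable at this depth.

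Markers of bone-forming cells and macrophages were compared because these cells are known to express the dentin and bone genes. The summed FPKM of 8 osteoblast and odontoblast markers was 63.1 in +N and 32.3 in +ND, with 61.7 in +NF and 79.3 in +NFD, most of it from Runx2. Their defining markers Bglap and Bglap2, which encode osteocalcin, were at most 0.255 and 0.744 FPKM, and Bglap was at 0 in +N, +ND and +NF. Sp7, a bone and tooth transcription factor, was at 1.63, 1.97, 1.6 and 8.54 FPKM, and Alpl, which encodes alkaline phosphatase, at 3.98, 2.38, 2.41 and 11, both highest in +NFD as was Dmp1. None of the 10 macrophage markers was at 0. Set against +N, a rise of 2-fold or more was found in 0 of 10 compared in +ND and in 0 of 9 in +NFD, beside 5.88% and 5.85% of all genes, so that nothing is read from these counts. In +ND relative to +N, 4 of the 10 macrophage markers had a positive and 6 a negative ratio, with a median log2 ratio of -0.08. Among them, Cd68 (23.5 to 36.2 FPKM), Adgre1 (5.27 to 8.38) and Mrc1 (2.8 to 4.71) were higher within 2-fold. Lyz2, which gives most of the macrophage sum, was among the lower ones (528 to 408). Of the 9 fibroblast markers compared between +ND and +N, 5 had a positive and 4 a negative ratio, with a median log2 ratio of 0.24, and 1, Prrx1, was at least 2-fold higher (2.08 to 8.46 FPKM), beside 5.88% of all genes. Their summed level was 138 in +ND and 156 in +N, most of it from Col1a1 and Col1a2. In +NFD relative to +NF, all 10 fibroblast markers had a positive ratio, with a median log2 ratio of 1.96. Of these, 7 were at least 2-fold higher, beside 3.72% of all genes. Of 9 macrophage markers compared between +NFD and +NF, 8 had a positive and 1 a negative ratio, with a median of 0.32. None of the macrophage markers was 2-fold higher there. The part of macrophage, bone-forming or fibroblast RNA in the levels of Spp1, Ibsp and Dmp1 was not tested.

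Ranked by FPKM within +N, the genes ran BC037156, Odam, Spp1, Ibsp, Amtn, Dmp1, Ambn and Amelx, with Enam and Dspp at 0. The counting intervals overlapped for Amtn (6.05 to 8.06) and Dmp1 (5.81 to 6.96), and for Ambn (0.199 to 0.546) and Amelx (0.101 to 0.601). Within +NFD, the order was BC037156, Odam, Amelx, Spp1, Ibsp, Dmp1, Ambn, Enam, Amtn and Dspp. Dmp1 (26.9 to 29.2) and Ambn (25.1 to 27.9) overlapped there, and the other neighbours in the order did not. The number of genes that reached 1 FPKM was 6 of 10 in +N, +ND and +NF and 9 of 10 in +NFD. Among all 47360 symbols, 12529 reached it in +N and 12628 in +ND, with 12738 in +NF and 12959 in +NFD. The genes added in +NFD were Amelx, Ambn and Enam, whose levels are given above, so nothing further is read from this count. Together the 10 genes made up 16.4% of the FPKM sum in +N and 5.62% in +ND, with 12.8% in +NF and 6.17% in +NFD, nearly all of it from BC037156.

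Differences between media were then set beside those of all genes. The ratio of a gene was taken as log2((FPKM + 1)/(FPKM + 1)), a scale that compresses low genes such as Enam. It was computed where the higher of both libraries reached 1 FPKM, and a gene was counted at 2-fold. In +ND relative to +N, 6 of the 10 genes were compared. Spp1 was higher (log2 ratio 1.16), and Odam (-1.14), Amtn (-1.60) and BC037156 (-1.75) were lower, while Ibsp (0.67) and Dmp1 (0.48) lay within 2-fold. Among all 13173 genes compared, 5.88% were higher by 2-fold or more and 5.29% were lower. In +NF relative to +N, the same 6 genes were compared. None was higher, where 2.76% of 13090 genes were, and Amtn alone was lower (-1.84), where 2.44% were. The other 5 ratios lay between -0.48 for BC037156 and 0.22 for Dmp1.

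In +NFD relative to +N, 9 genes were compared, and Amelx, Ambn and Enam were among them only because of their level in +NFD. The log2 ratio was 8.00 for Amelx, 4.36 for Ambn, 1.57 for Enam and 1.98 for Dmp1, which makes 4 genes higher. Amelx, Ambn and Enam could only come out higher here, so nothing is read from their part of this count. It was -1.26 for Odam, -1.91 for Amtn and -1.59 for BC037156, which makes 3 lower. Spp1 (0.99) lay just within the 2-fold limit and Ibsp (0.85) inside it. Among all 13358 genes, 5.85% were higher and 4.03% lower, and the ratio of Amelx was second from the top.

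In +NFD relative to +NF, which differ in DBZ with FGF10 in both, Amelx (8.18), Ambn (4.62), Enam (1.57), Dmp1 (1.76) and Spp1 (1.21) were higher. Odam (-1.06) and BC037156 (-1.10) were lower, and Ibsp (0.97) and Amtn (-0.08) lay within 2-fold. Of 13349 genes, 3.72% were higher and 2.69% lower. In +NFD relative to +ND, which differ in FGF10 with DBZ in both, Amelx (7.99), Ambn (4.59), Enam (1.57) and Dmp1 (1.50) were higher and no gene was lower. Of 13293 genes, 3.39% were higher and 3.11% lower. The remaining 5 genes lay between -0.32 for Amtn and 0.18 for Ibsp. In both comparisons, Amelx, Ambn and Enam passed the filter only because of their level in +NFD. They could therefore only come out higher, and nothing is read from their count. These comparisons share libraries, so the values are given side by side and are not independent of each other.

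**Figure D4:**
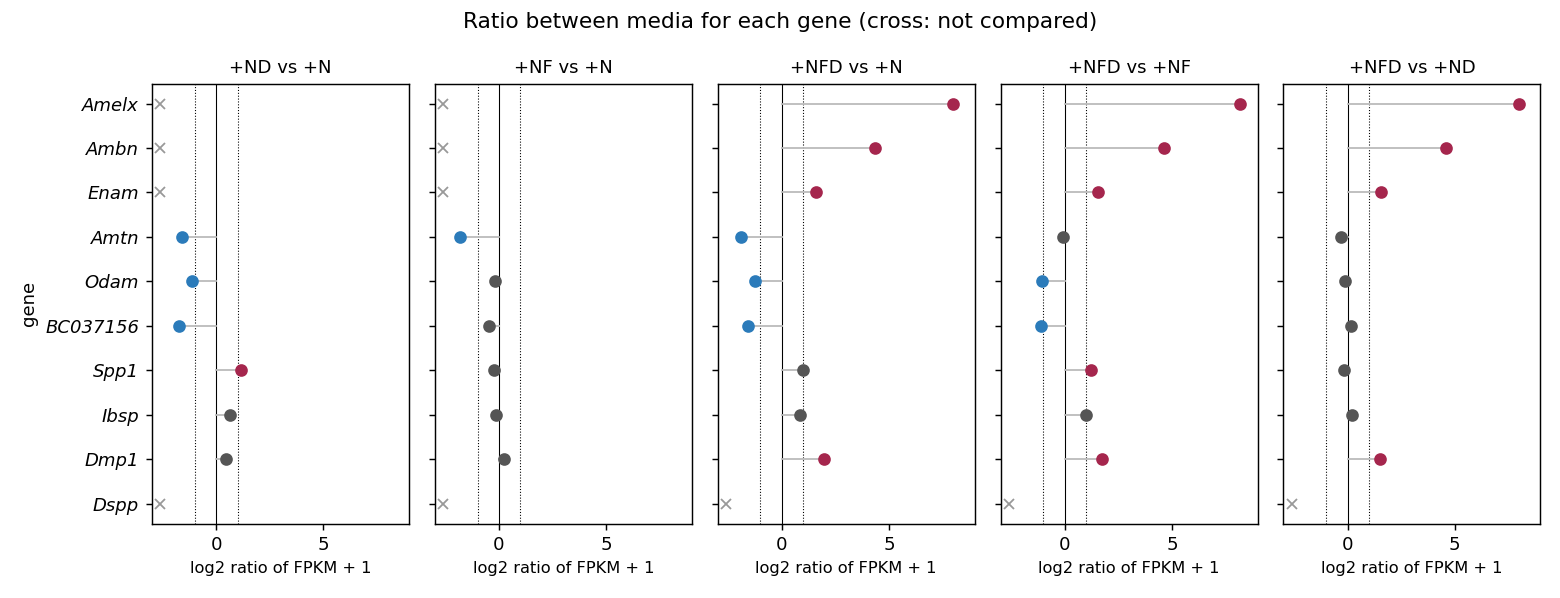
log2 ratio of FPKM + 1 (x axis) for each gene (y axis) in 5 comparisons between media, 1 library per medium, with dotted lines at 2-fold and a cross at the left edge for a gene that was not compared. Amelx, Ambn, Enam and Dmp1 lie right of 2-fold in all 3 comparisons with +NFD, and Odam and BC037156 lie left of it where a library with DBZ is compared with one without.

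The 4 media form a layout of FGF10 and DBZ. In it, the difference between libraries with and without FGF10, taken with DBZ, can be set against that taken without DBZ. This difference of differences, on the log2(FPKM + 1) scale, was 8.17 for Amelx, 4.85 for Ambn, 1.57 for Enam, 1.52 for Amtn and 1.28 for Dmp1. It was 0.64 for BC037156, 0.31 for Ibsp, 0.08 for Odam and 0.05 for Spp1. Among 13748 genes that reached 1 FPKM in a library, 8.06% had a value of at least 1 in size. Amelx, Ambn and Enam were among these genes only because of their level in +NFD, which makes up almost all of their value, so nothing is read from their count. That of Amtn came from a low level with each addition and no further difference with both. For Odam and Spp1, the difference between libraries with and without DBZ was nearly the same with FGF10 (-1.06 and 1.21) as without it (-1.14 and 1.16). With 1 library per medium, none of these values was tested.

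Of the 10 genes, 9 lie in 2 clusters on chromosome 5, and Amelx lies on chromosome X. The cluster from Odam to Enam, chr5:87885029-88506049, holds 25 listed genes over 621.0 kb, of which 5 are described above. Of the 20 others, 14 were listed at 0 in all 4 libraries and 1, Csn3, reached an FPKM of 1. Among all 47360 symbols, between 19606 and 20450 were above 0 in each library, and 13748 reached 1 FPKM in a library. Nothing is therefore read from the number of genes at or near 0 in either cluster. Csn3, which encodes kappa-casein of milk and lies next to BC037156, was at 38.2 FPKM in +N and 10.7 in +ND, with 261 in +NF and 30.3 in +NFD. Like Odam and BC037156, it was lower in +ND than in +N (log2 ratio -1.75) and in +NFD than in +NF (-3.07). Its order of media differed from theirs, since it was highest in +NF. At the other end of the cluster, Ambn and Enam were higher in +NFD while Amtn, 70.1 kb before Ambn, was lower. The cluster from Dspp to Spp1, chr5:104170712-104441050, holds 8 listed genes over 270.3 kb, of which 4 are described above and none of the others reached an FPKM of 1. Among these others was Mepe, an acidic bone and dentin SCPP gene, at 0.0517 FPKM or less. The plot of levels along the clusters shows the detected genes of the first cluster at its ends.

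**Figure D5:**
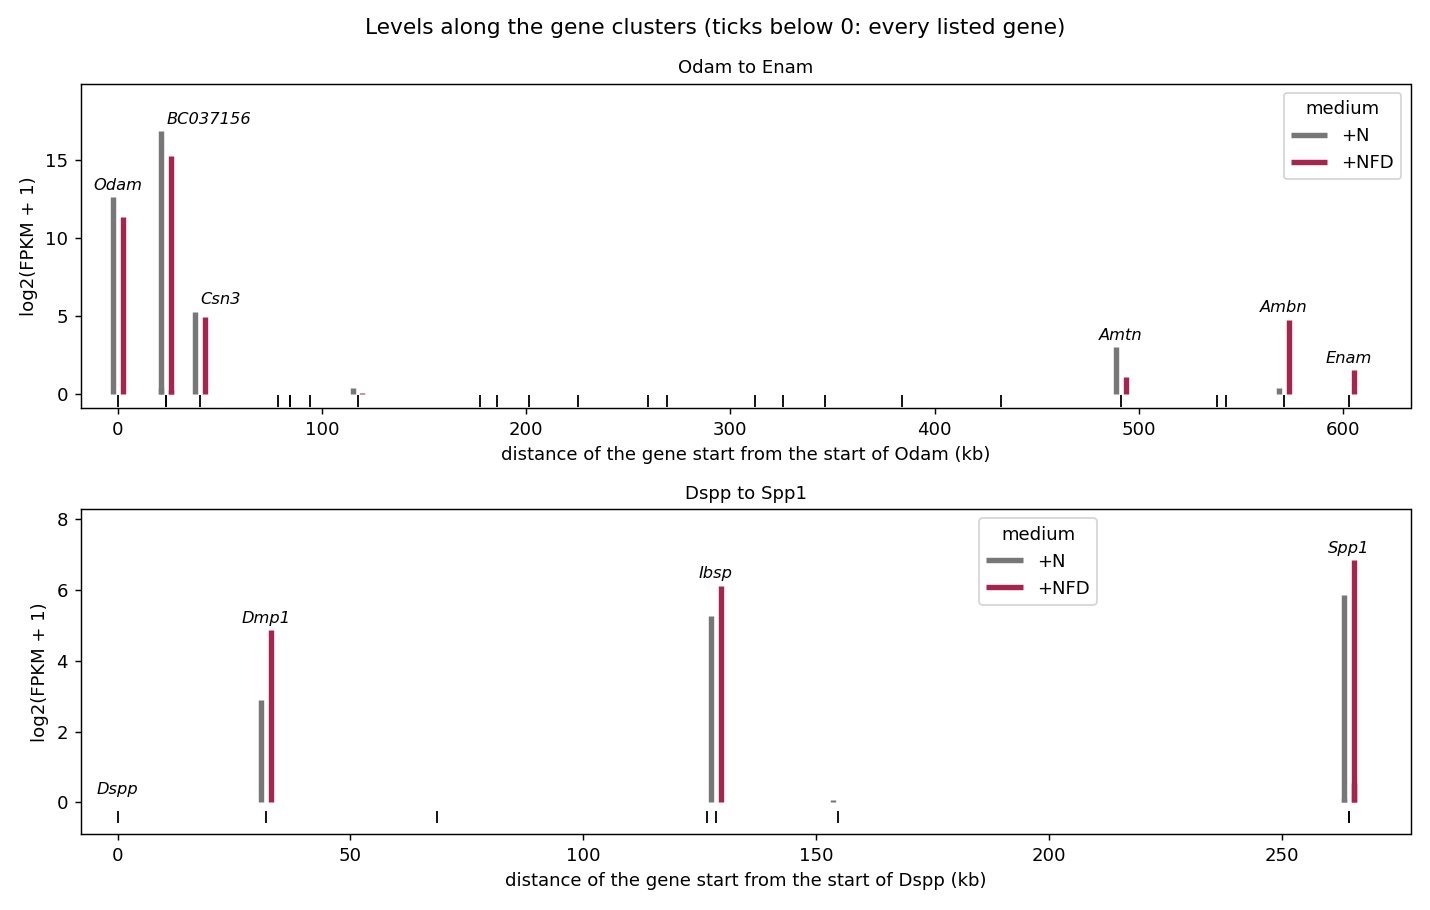
Level as log2(FPKM + 1) (y axis) in +N and +NFD of each gene in the cluster from Odam to Enam (top) and from Dspp to Spp1 (bottom), against the distance of its start from that of the first gene in kb (x axis), with a tick for each listed gene. Odam, BC037156 and Csn3 stand at the left end of the first cluster and Amtn, Ambn and Enam at the right end, with levels near 0 between them.

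Other genes of the family and of its ancestor SPARC were taken from a list of 14, of which 12 were found outside the 10 genes. In +NFD relative to +N, 4 could be compared (Sparc, Sparcl1, Gm17660 and Csn3), and 0 were at least 2-fold higher or lower, beside 5.85% and 4.03% of all genes. In +NF relative to +N, Csn3 was higher (log2 ratio 2.74) and Gm17660 lower (-1.44), beside 2.76% and 2.44%. Between +NFD and +NF, Gm17660 was higher (1.48) and Csn3 lower (-3.07), beside 3.72% and 2.69%. Sparc, which encodes the collagen-binding protein osteonectin, was at 131, 134, 227 and 256 FPKM, and Sparcl1, its relative, at 224, 151, 171 and 169. Gm17660, which RefSeq lists as Scpppq1, an enamel-associated SCPP gene on chromosome 5, was at 903, 1437, 331 and 928 FPKM. Among the 10 genes and this list, only BC037156 and Odam were more abundant than Gm17660 in +N. The level of Gm17660 was higher with DBZ by a factor of 1.59 (1.55 to 1.64) without FGF10 and 2.8 (2.7 to 2.91) with it, the opposite direction to Odam. It shares 231 exon bases with Gm43333 on the same strand, which was between 4.23 and 33.3 FPKM, so their assignment is uncertain. The casein genes Csn1s2a, Csn1s2b and Csn2 were listed at 0 in the 4 libraries.

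Genes that process the matrix were given by a list of 8. Fam20c, the kinase that phosphorylates secreted SCPP proteins, was at 109 FPKM in +N and 32.7 in +ND, with 58.5 in +NF and 40.2 in +NFD. Its pseudokinase partner Fam20a was at 111, 36.1, 98.2 and 85.8. In +ND relative to +N, both were at least 2-fold lower and 0 of 5 compared were higher, beside 5.29% and 5.88% of all genes. In +NFD relative to +N, Fam20c was lower (-1.42) and 0 of the 5 were higher, beside 4.03% and 5.85%. Mmp20 and Klk4, named here after their values were seen, encode the secretory-stage and maturation-stage enamel proteases. Mmp20 was at 0.194 FPKM in +NFD and listed at 0 in the others, from an estimated 18.3 fragments (0.113 to 0.301). Klk4 was at 0.0346 in +ND and at 0 elsewhere.

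Of 11 transcription factors known to act on SCPP genes, 10 were compared between +NFD and +N. Of these, 4 were at least 2-fold higher and 0 lower, beside 5.85% and 4.03% of all genes. Sp7 (1.63 to 8.54 FPKM), Msx2 (10.3 to 38.4), a repressor of amelogenin transcription in some settings, Satb1 (1.64 to 5.8) and Dlx3 (8.95 to 20.4) were the higher ones. In +ND relative to +N, Msx2 was higher (30 FPKM, log2 ratio 1.45), and Runx2 and Cebpa were lower (-1.03 and -1.13), beside 5.88% and 5.29% of all genes. Sp6, which encodes epiprofin, a factor of ameloblast differentiation, was at most 0.13 FPKM in the 4 libraries. No link between these factors and the SCPP genes was tested.

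The genes whose profile over the 4 libraries was nearest to that of a gene were found among 10467 genes that reached 5 FPKM in a library, by the Euclidean distance of log2(FPKM + 1) centred on its mean. For Dmp1 they were Serpinf1 (distance 0.12), Gchfr, Mmp23, Scarf2 and Sp7 (0.23). That they too were highest in +NFD follows from their choice by likeness to Dmp1. For Amtn they were Ly6g6e (0.13), Sh2d4a, Tmem45b, Mall and Pdzk1ip1 (0.43). For BC037156 they were Trim12a (0.17), Nrep, Cadm4, Pde3b and Upp1 (0.21). For Spp1 they were Vasn (0.12), Fosl1, Ngef, Gpt and Dio2 (0.20), and for Ibsp Ugdh (0.09), Fam213b, Ccdc24, Map1lc3a and Coro2a (0.15). For Amelx and Ambn, the 5 nearest were all genes of short RNAs (miRNA, snoRNA, snRNA or misc_RNA), of which 5 and 4 were listed at 0 in the other 3 libraries. For very short transcripts a high FPKM can rest on few fragments. No fragment number was estimated for these RNAs, and the length classes behind the steps began at 350 bases. Nothing is therefore read from their likeness to Amelx and Ambn. With a pseudocount of 0.1, 4 of the 5 genes stayed for Amelx, Amtn, Ibsp and Dmp1, 2 for Spp1 and BC037156, and 1 for Ambn. With 4 points per profile, many genes lie close together, and likeness describes these libraries only.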

How the data were processed

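Reads of TruSeq libraries were checked with FastQC 0.11.9 and trimmed with Trim Galore 0.6.5 by the authors, who used TopHat 2.1.1 for alignment to GRCm38. The deposited FPKM values are Cufflinks 2.2.1 estimates, so abundant short transcripts weigh heavily. The strand setting and the annotation release were not given in the sources used here. Gene coordinates in the table equalled those of GENCODE M21 for all members. FPKM of entries with the same symbol were summed.

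The members and gene lists were chosen with earlier results of these data known. Named genes were the members, list genes with the largest ratios in +NFD relative to +N (at most 4 per list), genes inside the clusters, the gene that holds Amelx, and the 5 nearest profiles, which for Odam are not reported here. Mmp20, Klk4, Sp6, Runx2, Cebpa, Bglap, Bglap2, Csn1s2a, Csn1s2b, Csn2, Adgre1, Col1a1, Col1a2, Epcam, Gm43333 and Gm44323 fall outside this rule and were named after their values were seen. The pseudocount was 1 FPKM, the filter 1 FPKM and the limit 2-fold. Fragments were estimated from steps between low FPKM values, with the longest transcript of a gene, and 3 fragments were taken as the floor.

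The computation was tested on simulated data of 12127 genes. It called 193 of 200 genes that differed 4-fold and 5 that did not, and a relative depth of 0.741 was recovered as 0.743. The simulated libraries were drawn from the levels in +N with counting error only. Spread between cultures was left out, so these numbers do not give the error of the 2-fold calls in the real libraries. The alternatives were another pseudocount or none, another filter or none, upper-quartile scaling, centring, rescaling to TPM, the highest entry per symbol, the shortest transcript and, added after seeing the data, rescaling without BC037156. Promoter sequences came from RefSeq (GRCm38.p6), transcripts from GENCODE M21. Software was Python 3.11.15, scipy 1.17.1, numpy 2.4.6, matplotlib 3.10.9 and pandas 2.3.3.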

Additional observations from a re-analysis of the deposited data

Results flagged for a closer look

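For BC037156 and Ibsp, FGF10 went with a lower level without DBZ and a higher level with it. On the log2(FPKM + 1) scale, the difference between libraries with and without FGF10 in BC037156 was -0.48 without DBZ and 0.16 with it. In Ibsp it was -0.13 and 0.18, and each of these values was beyond counting error as deposited. The median of all genes was 0.12 and 0.09 in the same comparisons. With TPM, the value of Ibsp without DBZ was -0.02, no longer beyond counting error, and centring on the median took the values with DBZ to 0.07 in BC037156 and 0.09 in Ibsp. Ambn had -0.26 and 4.59, but its levels in +N and +NF were under 1 FPKM and rested on an estimated 17 and 6.21 fragments, so that nothing is read from its first value. With 1 library per medium, the difference between these pairs was not tested.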

How the results depend on the processing

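No paired analysis was possible because each medium has 1 library. No log2 ratio of a member changed sign under any alternative, and each count of members at least 2-fold higher or lower stayed within 1.5 times. The difference of differences did change sign in Odam, from 0.08 to -0.05 with TPM, and in Spp1, from 0.05 to -0.08 with TPM and -0.01 when rescaled without BC037156. Spp1 in +NFD relative to +N was 0.99 and ran from 0.81 with centring to 1.13 with TPM, so it crossed the 2-fold limit. Odam in +ND relative to +N was -1.14 and -0.98 with TPM, and Ibsp in +NFD relative to +NF was 0.97 and 1.01 with TPM, each on the other side of the limit. The ratios of low genes depended on the pseudocount. In +NFD relative to +N, Amelx was 8.00 and 10.23 without a pseudocount, Ambn 4.36 and 6.28, and Enam 1.57 and 4.37 with a pseudocount of 0.1. The median log2 ratio of all genes relative to +N was 0.10 in +ND, with 0.12 in +NF and 0.18 in +NFD, and 0.25, 0.22 and 0.31 with TPM. BC037156 made up 15.6% of the FPKM sum in +N and 5.17% in +ND, and leaving it out of the sum, an alternative added after seeing the data, gave 0.09, 0.17 and 0.17. Taking the shortest transcript of a gene gave 2728 estimated fragments of Amelx in +NFD in place of 7562, and 2.06 in +N in place of 5.84. For Spp1 in +N it gave 335 in place of 2324, so that the counting intervals of these genes would be wider. Of the nearest genes, the 0.1 pseudocount kept 2 of 5 for Spp1 and BC037156 and 1 of 5 for Ambn. Depth does not allow a statement on Dspp, or on Amelx among +N, +ND and +NF.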

Other observations

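Osteopontin acts on cells through CD44 and integrins. Of 9 receptor genes listed, 7 were compared, and between +ND and +N, where Spp1 was 2.26-fold higher, 0 were at least 2-fold higher and 1 was lower, beside 5.88% and 5.29% of all genes. That gene, Itgb3, was at 4.86 FPKM in +N and 1.24 in +ND, with 2.44 in +NF and 1.19 in +NFD. Cd44 was at 92.2, 107, 99.5 and 78.1 FPKM, and Itgb1, the common β subunit, at 155, 253, 226 and 200. Itgb6, whose loss affects enamel, was at 8.65, 4.47, 9.18 and 5.2 FPKM. Cd63 and Lamp1, which take part in the uptake of amelogenin, were at 369, 195, 442 and 269 FPKM and at 324, 256, 357 and 263.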
